A study of Mus musculus with 28 samples.

Results

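A set of 10 transcription factor genes of the hair follicle was followed through the closure of a skin wound in the mouse, namely Hoxc13, Msx2, Foxn1, Dlx3, Lhx2, Sox9, Sox21, Ovol1, Foxq1 and Gata3. They were chosen by name, with earlier results of these data known, and make up 10 of the 29068 genes in the table of raw counts. The shares over all genes beside their counts are a description and no test of the set. Skin from the wound site of C57BL/6J mice, carried as wild type for MLKL in the study, was collected at 7 time points, with 4 RNA libraries each and 28 in all. By the study's methods the mice were 8 weeks old and of both sexes, and a 6-mm punch wound reaching the fascia was made on the shaved back under isoflurane. The whole wound with its scab and the epithelium at its margin was taken. The labels give natural wound healing as the treatment of all groups, day 0 included, and set day 0 as the control for days 3, 5, 7, 10, 12 and 14, while the study's methods count the day of injury as day 1. Whether the day 0 skin was wounded is not given in the sources used here, and each fold against day 0 is read only as a difference from those libraries. The series text speaks of 5 repeats per time point, and 4 were analysed here. No source says that the 4 libraries of a day came from separate mice, so p-values measure the spread between these libraries, which may be technical.

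The hair follicle is renewed in cycles from stem cells in the bulge, and in the growth phase its lower end, the matrix, divides and gives rise to the hair shaft and the inner root sheath around it. Transcription factors set these fates. Hoxc13, Msx2, Dlx3 and Foxn1 act in the matrix and the forming shaft, Lhx2 and Sox9 in stem cells and the outer root sheath, Sox21 in the hair shaft cuticle, Gata3 in the inner root sheath and Foxq1 in the medulla, the core of the hair, while Ovol1 acts in differentiating cells of both epidermis and follicle.

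Hoxc13, Msx2, Dlx3 and Lhx2 encode homeodomain proteins, Foxn1 and Foxq1 forkhead proteins, Sox9 and Sox21 proteins with an HMG box, and Ovol1 and Gata3 zinc finger proteins. With the GRCm38 (mm10) build with GENCODE M21 annotation, Hoxc13 lies at chr15:102921103-102928814 on the plus strand with 2 exons, Msx2 at chr13:53466884-53473074 on the minus strand with 2, and Dlx3 at chr11:95120119-95125296 on the plus strand with 3. Foxn1 lies at chr11:78357577-78386558 on the minus strand with up to 9 exons, and Lhx2 at chr2:38339281-38369733 on the plus strand with up to 5. Sox9 lies at chr11:112782224-112787760 on the plus strand with 3 exons, and Sox21 at chr14:118233232-118237030 on the minus strand with 1. Ovol1 lies at chr19:5549136-5560646 on the minus strand with 4 exons, Foxq1 at chr13:31556134-31560976 on the plus strand with 1, and Gata3 at chr2:9857078-9890034 on the minus strand with up to 6.

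The set of RefSeq promoters used here held 6 for 5 of the members (Foxn1, Gata3, Msx2, Sox21 and 2 for Lhx2). Of the 6, 3 held the letters of a factor class searched for. The promoters of Foxn1 and Sox21 are printed because they hold such a match and lie upstream of all annotated exons. That of Msx2 holds TAATTA 187 bases before its start site but lies inside the annotated gene, and those of Gata3 and Lhx2 held none of the motifs. Each is the 250 bases before a RefSeq start site on GRCm38, outside all annotated exons, written 5′ to 3′ on the gene's own strand, with the match in capitals. The Foxn1 promoter is chr11:78386609-78386858 (minus strand), and its capitals are the homeodomain letters TAATTA, which begin 29 bases before the start site. The Sox21 promoter is chr14:118237031-118237280 (minus strand), and its capitals are CTTTGA, the letters of the Wnt factors LEF and TCF, read on the opposite strand and beginning 114 bases before the start site.
Foxn1: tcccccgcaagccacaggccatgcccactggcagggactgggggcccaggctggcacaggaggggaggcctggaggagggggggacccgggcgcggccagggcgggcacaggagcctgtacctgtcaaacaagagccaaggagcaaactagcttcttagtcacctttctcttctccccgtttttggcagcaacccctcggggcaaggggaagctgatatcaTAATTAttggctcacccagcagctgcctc
Sox21: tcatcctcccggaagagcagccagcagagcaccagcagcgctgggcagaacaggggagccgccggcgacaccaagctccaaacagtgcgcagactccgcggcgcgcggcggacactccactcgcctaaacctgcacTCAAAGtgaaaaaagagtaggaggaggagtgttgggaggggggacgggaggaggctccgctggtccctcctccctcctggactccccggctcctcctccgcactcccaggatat
Both strands were searched for the letters of 6 motifs in 32851 RefSeq promoters of the same length. The homeodomain letters TAATTA were found in 4.84% of them. The forkhead letters GTAAACA were found in 3.17%. The letters AGATAA, bound by GATA proteins, were in 9.99%, and the SOX letters ACAATG were in 10.7%. The OVO letters CCGTTA were in 2.18%, and the LEF and TCF letters CTTTGA were in 13.8%. A match is a description of the letters only.

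The libraries held 36706513 to 40655764 counts each. The biological coefficient of variation over all genes was 26.5% on day 0 and 5.77% to 10.8% on the later days. One library stood apart for the matrix genes, day 0 replicate 1, whose FPKM (reads corrected for gene length and depth) was 3.34 times the mean of the other 3 day 0 libraries for Msx2, 2.94 times for Foxn1, 2.60 times for Dlx3 and 2.24 times for Hoxc13, and 0.96 to 1.32 times for the other 6 genes. The summed FPKM of 14 hair shaft keratin genes was also spread over 59.0 to 449 between the day 0 libraries. For the 10 genes, values without this library are given too for days 3 and 14 and for the counts of calls, and for other genes where a call or a printed value moved by over 1.5 times. Beside skin genes the tissue held skeletal muscle RNA, since 7 muscle genes summed to 10051 to 16284 FPKM on day 0 and to 2193 to 5913 FPKM on the later days.

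All 10 genes passed the filter on low counts and differed between the 7 days in the edgeR joint test, adjusted after Benjamini and Hochberg over 18107 genes (89.5% of all genes tested did so). The group dropped early and climbed late. Summed over the 10 genes, the day 0 level of 59.8 ± 13.3 FPKM (SD, n = 4) gave way to 16.0 ± 2.12 at day 3 and 17.3 ± 0.70 at day 5. It was 45.6 ± 1.71 by day 7 and 63.2 ± 3.93 by day 10, then 207 ± 20 by day 12 and 297 ± 23.5 by day 14. In bulk tissue, fewer follicle cells and less RNA per cell cannot be told apart.

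Each later day was compared with day 0, the question being how skin of each later day differs from the day the labels set as control, and these comparisons share the day 0 libraries. On day 3, 9 of the 10 genes were lower at an adjusted p under 0.05 (34.8% of all genes were) and none was higher (31.8%). On day 5 all 10 were lower (30.6%) and none was higher (29.0%). On day 7, 5 were lower (24.8%) and none was higher (25.6%), and on day 10, 5 were lower (26.9%) and 4 higher (23.5%). The day 10 libraries of Hoxc13, Msx2 and Dlx3, called higher, overlapped with day 0. So did those of Foxn1 and Ovol1, called lower (exact permutation p = 0.057 to 0.14 for these genes). By day 12 the order had turned, with 8 higher (21.7%) and 1 lower (25.6%), and on day 14 there were 9 higher (28.2%) and 1 lower (34.5%). The median log2 fold change of the 10 genes was -2.38 for day 3 and -1.90 for day 5, smaller in the middle (-0.37 for day 7, -0.14 for day 10), and 1.33 for day 12 and 1.65 for day 14. That of all genes tested stayed between -0.06 and 0.00. Hoxc13, Msx2, Foxn1, Dlx3, Lhx2, Sox9, Sox21 and Gata3, 8 of the 10, were lower on day 3 and higher on day 14, as were 6.54% of all genes tested.

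By the study's criteria, a log2 fold change over 1.5 and an unadjusted P under 0.05, 8 of the 10 genes were lower at day 3 (12.4% of all genes) and 9 at day 5 (8.31%), with none higher (6.50% and 5.61%). None of the 10 passed at day 7 (4.74% of all genes lower, 4.66% higher) or at day 10 (5.14% and 4.33%). Then 4 were higher at day 12 (3.89%, with 3.51% lower) and 6 at day 14 (5.15%, with 8.83% lower), and none was lower. Without day 0 replicate 1 these criteria gave 8 lower at day 5, 1 higher at day 10 and 7 higher at day 14, and the other counts were as before. Without day 0 replicate 1, the adjusted counts stayed at 9 lower on day 3 and 10 on day 5, and at 9 higher on day 14. The 5 lower on day 10 became 4, without Ovol1, and the 8 higher on day 12 became 9, with Gata3 (log2 0.26, edgeR adjusted p = 0.031). On day 7 the count of higher genes went from 0 to 4 without it, and the single lower gene of days 12 and 14, Foxq1, was no longer called. The day 3 folds without it were 19.0 lower for Hoxc13, 4.47 for Dlx3, 9.37 for Lhx2, 6.67 for Foxq1, 3.95 for Sox9, 3.69 for Sox21 and 3.56 for Gata3. Its removal left the day 14 folds at 3.37 higher for Lhx2, 3.48 for Sox21, 2.89 for Ovol1, 1.65 for Sox9 and 1.51 for Gata3.

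**Figure D1:**
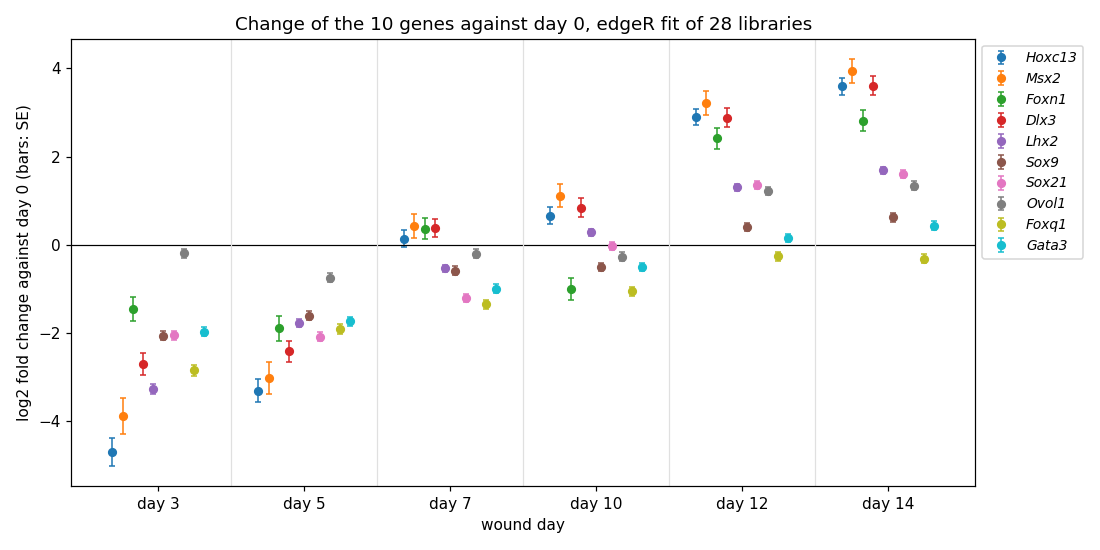
Log2 fold change of the 10 genes against day 0 (vertical axis, bars are the SE of the edgeR fit) on each wound day (horizontal axis), 4 libraries a day. All points lie below 0 on days 3 and 5, and all except Foxq1 lie above 0 on days 12 and 14.

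From one wound day to the next, without the day 0 libraries, the members rose in unequal steps. The median log2 step was 0.37 from day 3 to day 5, 1.13 from day 5 to day 7, 0.48 from day 7 to day 10, 1.43 from day 10 to day 12 and 0.33 from day 12 to day 14. Lhx2 and Foxq1 rose more between days 3 and 5 (log2 1.49 and 0.93) than between days 5 and 7 (1.24 and 0.56), and Sox21 rose by 1.19 between days 7 and 10 against 0.88 in the step before. Between days 3 and 5, 4 genes rose (12.9% of all genes), namely Hoxc13, Lhx2, Sox9 and Foxq1, and Ovol1 fell (11.4%). The Hoxc13 call (adjusted p = 0.018 by edgeR) was lost without day 3 replicate 1, day 3 replicate 4 or day 5 replicate 1 (adjusted p up to 0.071). Between days 5 and 7 all 10 rose (13.9%, with 14.6% falling). Between days 7 and 10, 6 rose (14.3%) and Foxn1 fell (18.0%), then all 10 rose between days 10 and 12 (18.7%, with 20.7% of all genes falling) and 6 between days 12 and 14 (19.9%, with 25.3% falling). In the step from day 7 to day 10, the edgeR calls of Hoxc13 (adjusted p = 0.034), Msx2 (0.045) and Foxq1 (0.041) were lost when 6, 8 and 4 of the 8 libraries were each left out in turn. In the last step, Sox21 (adjusted p = 0.024 by edgeR) was no longer called without day 12 replicate 1, day 14 replicate 1 or day 14 replicate 3, and Gata3 (adjusted p = 0.018) without either of the first 2 of these. From day 3 to day 14 all 10 rose (34.2%, with 32.8% falling), by 2.90-fold for Ovol1 to 311-fold for Hoxc13.

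**Figure D2:**
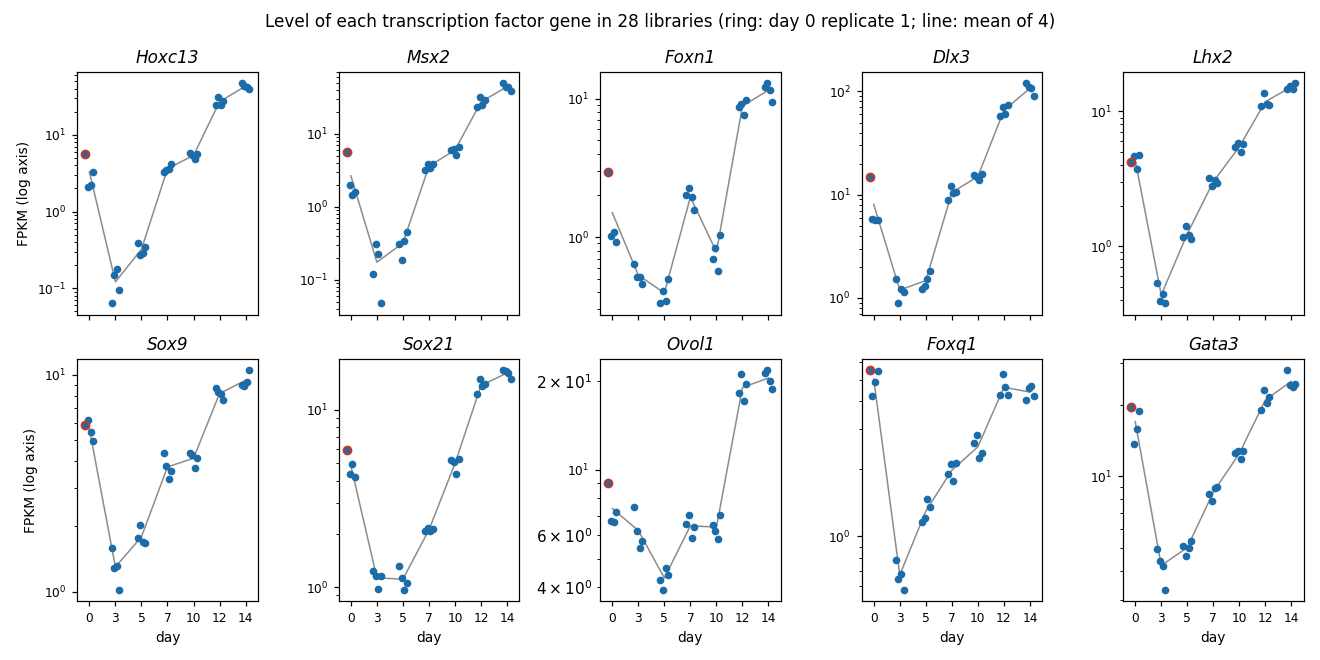
FPKM of each gene (vertical log axis) in the 28 libraries by day (horizontal axis, evenly spaced), with a grey line through the day means and a red ring around day 0 replicate 1. Each gene is at its lowest on day 3 or day 5, Ovol1 on day 3 overlaps with day 0, and Foxn1 shows a second low point on day 10.

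Hoxc13 encodes a homeodomain protein needed for hair keratin expression and had the largest fold from day 3 to day 14 of the 10. Its level was 5.62, 2.06, 2.21 and 3.26 FPKM in the 4 day 0 libraries, 0.0633, 0.148, 0.179 and 0.0948 on day 3, and 47.6, 43.6, 42.3 and 39.5 on day 14. The day 3 libraries held only 6 to 17 counts each, and no library of one of these days overlapped with another day. Hoxc13 fell on day 3 by 4.69 on the log2 scale (SE 0.31, edgeR adjusted p = 1.8e-13) and was 12.0-fold higher on day 14 (log2 3.59, SE 0.20, adjusted p = 1.06e-14). Without day 0 replicate 1 the day 14 fold was 16.8. At day 7, with 3.24, 3.44, 3.62 and 4.20 FPKM, it was not distinguishable from day 0 (log2 0.14, adjusted p = 0.58), and without that library it was higher (log2 0.53, adjusted p = 0.0018).

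Msx2, a homeodomain repressor of the matrix whose loss gives cyclic hair loss, ran beside Hoxc13. Its day 0 libraries held 5.62, 1.99, 1.45 and 1.61 FPKM, its day 3 libraries 0.119, 0.308, 0.225 and 0.0474, and its day 14 libraries 50.1, 43.9, 44.7 and 39.1. The days did not overlap, although the day 3 values rest on 4 to 26 counts. Msx2 fell on day 3 by 3.87 on the log2 scale (SE 0.41, edgeR adjusted p = 3.22e-09), and on day 14 it was 15.2-fold higher (log2 3.93, SE 0.28, adjusted p = 1.4e-12). Leaving out day 0 replicate 1 changed these folds by over 1.5 times, to 8.88-fold lower on day 3 in place of 14.6 and 25.6-fold higher on day 14. The day 7 difference of 0.43 (adjusted p = 0.19) became 1.10 without it (adjusted p = 6.83e-06).

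Dlx3, a homeodomain protein of the matrix needed for shaft and inner root sheath, reached the highest level of the 10 on days 7 to 14. It was at 14.9, 5.85, 5.70 and 5.72 FPKM on day 0, at 1.53, 0.885, 1.22 and 1.14 on day 3 and at 121, 109.9, 107 and 90.8 on day 14. The first of the day 0 libraries stands above the other 3, and the 3 days did not overlap. Dlx3 was 6.50-fold lower on day 3 (log2 -2.70, SE 0.25, edgeR adjusted p = 1.64e-10) and 12.2-fold higher on day 14 (log2 3.61, SE 0.22, adjusted p = 1.1e-13). Without day 0 replicate 1 the day 14 fold was 18.1. On day 7 Dlx3 was not called (log2 0.38, adjusted p = 0.14) until that library was left out (log2 0.87, adjusted p = 1.5e-06).

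Foxn1, the gene mutated in nude mice, whose hairs break at the skin surface, had a course of its own among the 10 genes. Its level was 2.97, 1.02, 1.09 and 0.921 FPKM in the day 0 libraries. The day 3 libraries had 0.635, 0.511, 0.516 and 0.459, and those of day 5 had 0.331, 0.405, 0.343 and 0.50. All day 3 and day 5 libraries lie below all day 0 libraries. Foxn1 fell on day 3 by 1.45 on the log2 scale (SE 0.27, edgeR adjusted p = 3.41e-05), and by 0.82 without day 0 replicate 1. It was then at 2.00, 2.26, 1.96 and 1.57 FPKM on day 7, at 0.698, 0.832, 0.568 and 1.03 on day 10, at 8.77, 9.22, 7.63 and 9.78 on day 12 and at 12.2, 13.0, 11.6 and 9.43 on day 14. The 4 day 10 libraries lie below the 4 of day 7 and far below those of day 12. Between days 7 and 10 Foxn1 fell by 1.37 on the log2 scale (SE 0.26, edgeR adjusted p = 0.000137), and between days 10 and 12 it rose 10.6-fold (log2 3.41, SE 0.26, adjusted p = 2.75e-11). By day 14 it was 7.04-fold above day 0 (log2 2.82, SE 0.25, adjusted p = 1.04e-10), and 11.1-fold without day 0 replicate 1.

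Foxn1 was the single member that fell from day 7 to day 10, and its ratio to the other matrix genes was computed in the same libraries after these values had been seen. The log2 ratio of its counts to those of Hoxc13 went from -0.20 ± 0.36 on day 7 to -2.11 ± 0.29 on day 10 (SD, n = 4 each), a 3.76-fold decrease. The ratio to Msx2 was 4.19-fold lower and that to Dlx3 3.63-fold lower on day 10. These ratios are given as a description with no test, since every day 10 library was already below day 7 for Foxn1 and above it for the other 3 genes.

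The keratin genes that build the hair were divided at the same step. Of 14 hair shaft keratin genes, 12 fell between days 7 and 10, none rose and the median log2 change was -4.41 (0.00 over all genes tested). Summed, they stood at 184 to 284 FPKM at day 7 and 46.6 to 54.3 at day 10, and then at 1334 to 1812 by day 12 and 2338 to 2981 by day 14. Krt83 went from 31.4 ± 7.23 FPKM to 0.423 ± 0.146 over these 2 days (SD, n = 4 each), while Krt85 had 18.8 ± 4.45 before and 21.8 ± 1.84 after. Of 12 genes in a list for the inner root sheath, which held Krt75, S100a3 and Tgm3 too, 10 fell between days 7 and 10. None of the 12 rose (median log2 change -2.0), and their sums were 566 to 778 FPKM before and 144 to 169.7 after. Their part in the Foxn1 result was not tested.

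**Figure D3:**
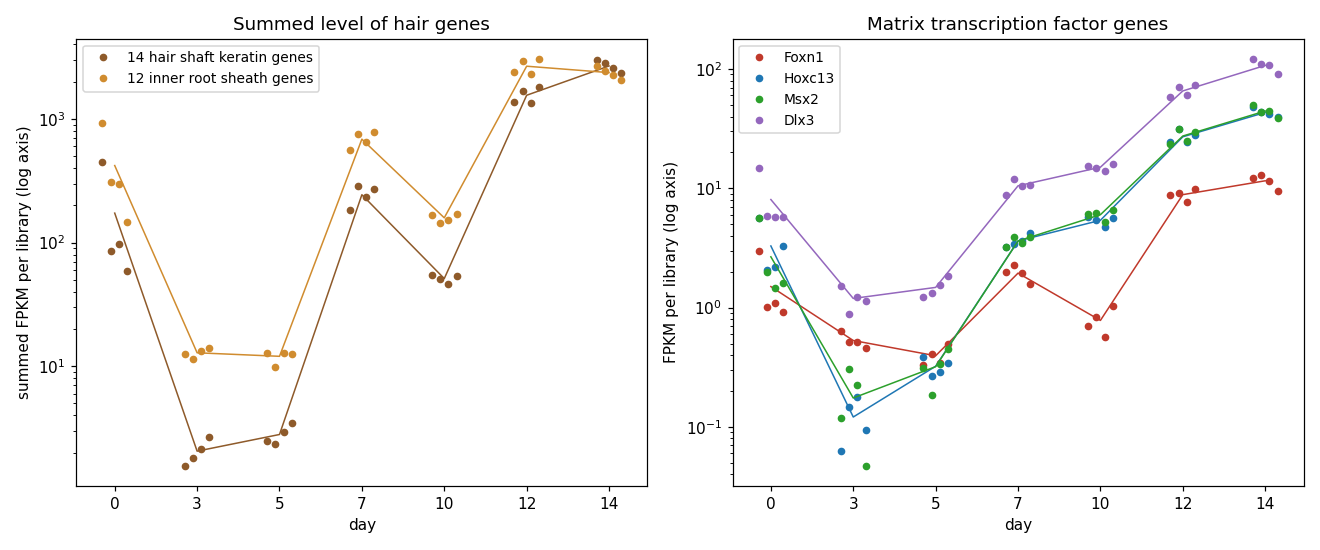
Left, summed FPKM per library of 14 hair shaft keratin genes and of 12 genes of the inner root sheath list (vertical log axis) by day (horizontal axis, evenly spaced). Right, FPKM per library of Foxn1, Hoxc13, Msx2 and Dlx3 on the same kind of axes, with lines through the day means. Both gene sums and Foxn1 are lower on day 10 than on day 7, while the points of Hoxc13, Msx2 and Dlx3 are not.

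Lhx2, a LIM homeodomain protein that maintains follicle stem cells, fell deeply and was not set by the outlying library. It was at 4.19, 4.66, 3.73 and 4.77 FPKM on day 0, at 0.528, 0.389, 0.443 and 0.374 on day 3 and at 14.7, 15.3, 14.7 and 16.3 on day 14. The 4 libraries of each day lie close together and the days do not overlap. Lhx2 was 9.61-fold lower on day 3 (log2 -3.26, SE 0.11, edgeR adjusted p = 5.24e-20) and 3.22-fold higher on day 14 (log2 1.69, SE 0.09, adjusted p = 2.69e-15). It had already passed day 0 by day 10 (log2 0.28, adjusted p = 0.0072), with no overlap.

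Sox9 marks the outer root sheath and the bulge and Sox21 the cuticle of the shaft. Sox9 was at 5.88, 6.20, 5.44 and 4.97 FPKM on day 0, at 1.59, 1.29, 1.31 and 1.01 on day 3 and at 8.99, 8.87, 9.32 and 10.6 on day 14. Its day 14 libraries all lie above day 0, by a modest step. Sox9 was 4.16-fold lower on day 3 (log2 -2.06, SE 0.10, edgeR adjusted p = 8.22e-16) and 1.54-fold higher on day 14 (log2 0.62, SE 0.10, adjusted p = 2.57e-06). Sox9 is also active in cartilage, and 5 cartilage genes summed to at most 2.05 FPKM in any library, with Col2a1 and Col9a1 too low to be tested. Acan, a cartilage proteoglycan, made up most of that sum on day 14, when it was 4.85 higher on the log2 scale than on day 0 (SE 0.39), at 1.73 ± 0.060 FPKM against 0.055 ± 0.067 (SD, n = 4 each), and 6.20 higher without day 0 replicate 1. Of the 3 cartilage genes tested, Acan was the 1 higher on day 14, 1 was lower (Comp, log2 -1.95) and 1 was not called. The part of these genes in the Sox9 result was not tested.

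Sox21 was at 5.93, 4.34, 4.98 and 4.18 FPKM on day 0, at 1.23, 1.15, 0.983 and 1.15 on day 3 and at 16.8, 16.6, 16.2 and 14.9 on day 14. Sox21 was as low on day 5, at 1.31, 1.12, 0.961 and 1.05 FPKM, and still below all day 0 libraries on day 7, at 2.08, 2.15, 2.07 and 2.14. It was 4.13-fold lower on day 3 (log2 -2.05, SE 0.10, edgeR adjusted p = 7.26e-16), 2.31-fold lower on day 7 (adjusted p = 3.99e-11) and 3.04-fold higher on day 14 (log2 1.61, SE 0.09, adjusted p = 3.92e-14). Its day 10 level was not distinguishable from day 0 (log2 -0.02, 95% interval -0.21 to 0.17).

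Ovol1, a zinc finger protein of keratinocytes leaving the cell cycle, was the single member not called lower on day 3. It was at 9.01, 6.70, 6.67 and 7.20 FPKM on day 0, at 7.50, 6.22, 5.42 and 5.75 on day 3 and at 4.22, 3.91, 4.66 and 4.41 on day 5. The day 0 and day 3 libraries overlap, and those of day 5 lie below both. The day 3 difference was -0.19 on the log2 scale (SE 0.10, edgeR adjusted p = 0.078), which passed the threshold when library totals or upper quartile factors set the scale (-0.25 and -0.28, adjusted p = 0.028 and 0.010). It also passed without day 0 replicate 2, day 0 replicate 3 or day 3 replicate 1 (edgeR adjusted p = 0.032 to 0.046), and without day 0 replicate 1 it was -0.03 (adjusted p = 0.77). Ovol1 fell on day 5 by 0.74 (SE 0.10, edgeR adjusted p = 2.59e-07) and by 0.55 from day 3 to day 5 (adjusted p = 0.000136). Its day 14 libraries, at 21.3, 21.8, 19.98 and 18.7 FPKM, were 2.53-fold above day 0 (log2 1.34, SE 0.10, adjusted p = 2.37e-12).

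Gata3, the factor that sets inner root sheath fate, is also active in T cells and innate lymphoid cells. Gata3 stood at 19.7, 13.7, 15.9 and 18.9 FPKM on day 0, at 4.93, 4.41, 4.20 and 3.30 on day 3 and at 28.2, 24.3, 23.9 and 24.5 on day 14. The days do not overlap. Gata3 was 3.90-fold lower on day 3 (log2 -1.96, SE 0.10, edgeR adjusted p = 1.15e-15) and 1.35-fold higher on day 14 (log2 0.44, SE 0.10, adjusted p = 0.000244), and its return was stepwise, at 7.90 to 9.03 FPKM on day 7 and 11.9 to 12.8 on day 10. Of 9 genes of T and innate lymphoid cells, 4 were lower and 3 higher on day 3 (34.8% and 31.8% of all genes tested). Their sum was 33.7 to 39.4 FPKM in the day 0 libraries and 24.2 to 27.6 at day 3, and it was 15.9 to 21.2 at day 14, when Gata3 was at its highest, and all of them had counts on every day. Their part in the Gata3 result was not tested.

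Foxq1, the gene mutated in satin mice, whose hair medulla is misshapen, was the member that did not climb above day 0. It was at 5.53, 4.21, 4.90 and 5.44 FPKM on day 0, at 0.787, 0.649, 0.683 and 0.575 on day 3, at 4.27, 5.31, 4.63 and 4.28 on day 12 and at 4.07, 4.61, 4.67 and 4.24 on day 14. The day 12 and day 14 libraries overlap with those of day 0. Foxq1 was 7.17-fold lower on day 3 (log2 -2.84, SE 0.12, edgeR adjusted p = 1.74e-17) and still 2.55-fold lower on day 7 (adjusted p = 3.88e-11). Its day 14 level was lower by a small step (log2 -0.32, SE 0.11, adjusted p = 0.011), a call that was lost without day 0 replicate 1 (log2 -0.19, adjusted p = 0.15) and without day 0 replicate 4 (log2 -0.20, adjusted p = 0.13). Without strand information, reads of overlapping genes cannot be told apart, and the overlapping genes in the table held at most 7.53% of the count of Gata3, 4.11% of that of Sox21 and 0.77% of that of Lhx2 in any library. Genes annotated over Foxq1 (A530084C06Rik), Ovol1 (Gm31166 and AC126029.1) and Gata3 (Gm13256) were not analysed here, and their share of the reads is not bounded by these values.

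Ordered by level, the 7 days of each gene give 6 neighbouring pairs, and of the 60 pairs over the 10 genes 39 differed at an adjusted p under 0.05 (19.2% of such pairs over all genes tested). Lhx2 was the gene with all 6 pairs apart. Ovol1 and Foxn1 had 2 of 6 apart. For Ovol1 the order ran from day 5 through days 10, 3, 7 and 0, and among the last 4 no neighbours were apart, although day 10 was below day 0 (log2 -0.27, edgeR adjusted p = 0.024), a call lost without day 0 replicate 1, day 10 replicate 2 or day 10 replicate 3 (adjusted p = 0.064 to 0.18). For Foxn1, days 5 and 3 were not apart, nor days 3 and 10, while day 10 was above day 5 (log2 0.89, edgeR adjusted p = 0.013). Its days 0 and 7 were not apart either, nor were days 12 and 14. Hoxc13, Msx2, Foxn1 and Dlx3 each had day 7 next above day 0 without a difference, in the fit that includes day 0 replicate 1.

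The order between genes also changed, compared per length as FPKM. Gata3 was the highest of the 10 on day 0 at 17.1 ± 2.76 (SD, n = 4), Ovol1 on day 3 at 6.22 ± 0.91, and Dlx3 from day 7 on, reaching 107 ± 12.4 on day 14. Of the summed FPKM of the 10 genes, Ovol1 held 12.5% on day 0, 38.9% on day 3 and 6.88% on day 14. Hoxc13, Msx2 and Dlx3 held 5.27%, 4.15% and 12.8% on day 0 and 14.5%, 14.9% and 36.0% on day 14.

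Ratios of 2 members of the same protein class in the same library need no scaling between libraries, and 9 pairs were compared with day 0 on 6 days. Of the 54 values, 26 had no overlap with day 0, a share like the 45.0% over the ratios of all pairs of genes tested. Each of the 26 had an exact permutation p of 0.0286, and none passed 0.05 after adjustment over the 54 (smallest adjusted p = 0.059). The log2 ratio of Sox9 to Sox21 counts was 0.35 ± 0.22 on day 0 (SD, n = 4), 0.95 ± 0.17 on day 7 and -0.65 ± 0.19 on day 14. The libraries of day 7 lie above and those of day 14 below all of day 0. Foxq1 to Foxn1 went from 1.42 ± 0.71 on day 0 to -1.88 ± 0.19 on day 14, and on day 10 it was back at 1.21 ± 0.35, overlapping with day 0. Gata3 to Ovol1 went from 1.42 ± 0.16 on day 0 to -0.35 ± 0.18 on day 3. Among the homeodomain genes, Dlx3 to Hoxc13 was 1.37 ± 0.31 on day 0, 3.42 ± 0.88 on day 3 and 1.41 ± 0.07 on day 14, and Lhx2 to Hoxc13 went from 1.12 ± 0.68 on day 0 to -0.90 ± 0.17 on day 14.

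**Figure D4:**
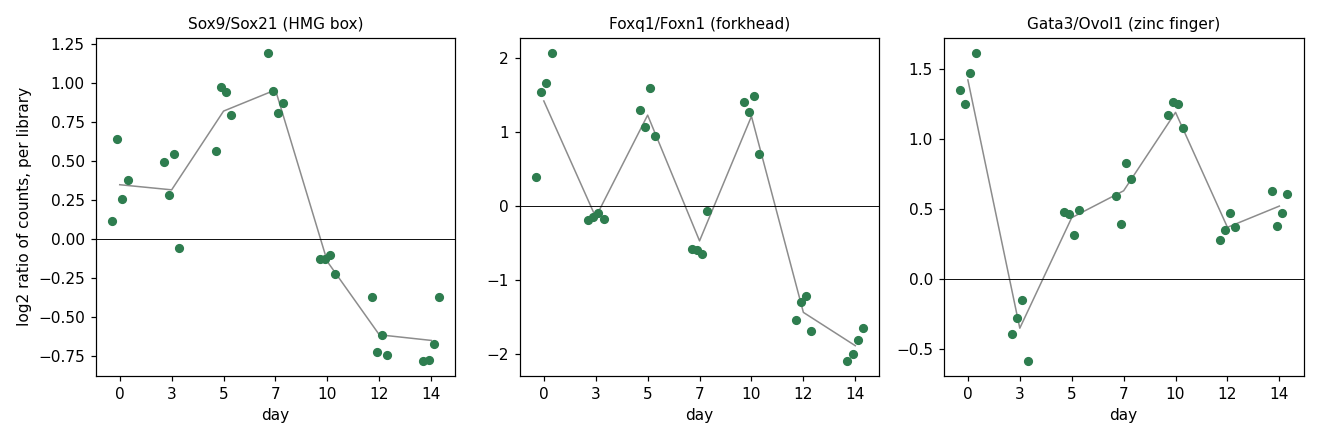
Log2 ratio of counts in each library (vertical axis) by day (horizontal axis, evenly spaced) for Sox9 to Sox21, Foxq1 to Foxn1 and Gata3 to Ovol1, with grey lines through the day means. Sox9 to Sox21 is above day 0 on day 7 and below it from day 10 on, and Gata3 to Ovol1 is at its lowest on day 3.

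Genes of the epithelium moved too, in both directions. Of 6 genes of wound-edge keratinocytes, 5 were higher on day 3 and none lower (median log2 fold change 5.08), with a summed level of 1787 to 2253 FPKM against 286 to 438 on day 0. Krt6b, a keratin of activated keratinocytes, had the largest increase of these (log2 6.43, SE 0.59). Without day 0 replicate 1 all 6 were higher (median 5.90, and 7.97 for Krt6b). Of 6 genes of the basal epidermis, 4 were lower on day 3 and none higher (median -0.70), and Krt14, the highest of them, was not called (log2 0.36, edgeR adjusted p = 0.099). Without that library Krt14 was higher (log2 0.59, adjusted p = 0.0076), as 1 of 2 higher genes of its list. Of 9 genes of epithelial junctions and identity, which serve as the reference for the relative values here, 8 were lower on day 3 and Dsg3, a desmosomal cadherin, was higher (log2 0.55, SE 0.14). The mean log2 CPM (counts scaled to the library size) of these 9 genes was 0.82 lower than on day 0 on day 3, 0.97 lower on day 5, 0.73 on day 7 and 0.86 on day 10, each with no overlap (exact permutation p = 0.0286), and 0.06 higher on days 12 and 14 (exact p = 0.49 on both). On day 3, 8 of 8 general leukocyte genes were higher, with a summed level of 10244 to 12419 FPKM against 1059 to 1515 on day 0. Relative to the epithelial genes of the same library, 8 of the 10 factors were still lower than on day 0 without overlap on day 3 (9.11% of all genes tested) and 8 on day 5 (4.64%, with 69.0% higher and no member among them). On day 7, 3 were lower (4.42%) and 4 higher (66.8%), and at day 10 none was lower (2.89%) and 7 were higher, a share like that of all genes (70.9%). By day 12, 1 was lower (19.1%) and 7 higher (13.9%), and by day 14, 1 was lower (26.3%) and 9 higher (19.3%). Without day 0 replicate 1 the higher members were 1 on day 5 and 5 on day 7, and the other counts did not change. Ovol1 was the member higher in this measure on day 3 (as were 60.2% of all genes), by 0.63 on the log2 scale (exact p = 0.0286, 0.035 adjusted over the 60 values). Foxn1 on day 3 differed by -0.43 with overlap (exact p = 0.37).

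**Figure D5:**
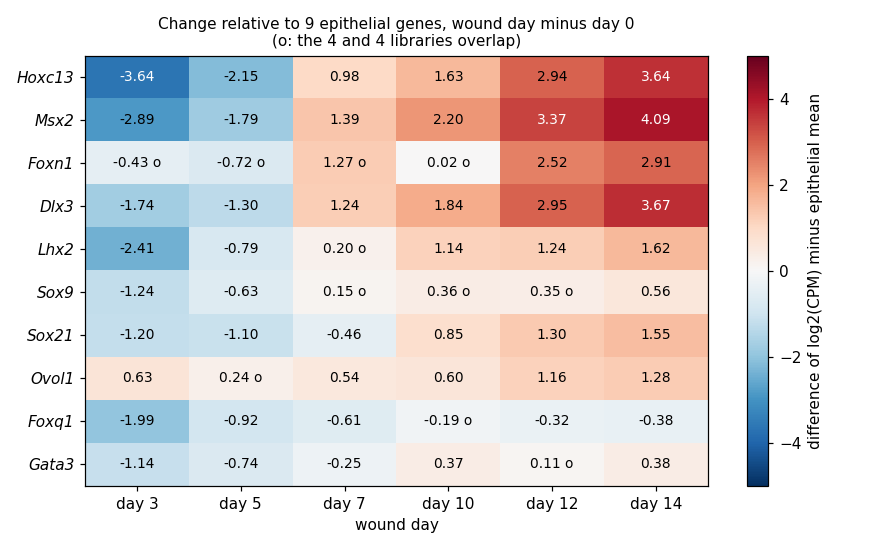
Difference between each wound day (columns) and day 0 in log2 CPM minus the mean log2 CPM of 9 epithelial genes in the same library, for each of the 10 genes (rows), with the colour bar on the same scale and an o where the libraries overlap. Blue cells fill days 3 and 5 for all genes but Ovol1, and red cells fill day 14 for all but Foxq1.

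The genes whose pattern over the 28 libraries was most like each member were named by Pearson's r of log2 CPM among 14684 genes, as a description over libraries that share 7 days. For Hoxc13 they were Krt35 (r = 0.99), Krt85 and Dlx2, for Msx2 they were Dlx2, Krt85 and Krt35, and for Dlx3 they were Foxe1, Lef1 and Vangl2. For Foxn1 they were Ly6g6d, Psors1c2 and Ly6g6g, whose mean levels on days 7, 10 and 14 were 5.85, 1.41 and 92.5 FPKM, 18.8, 2.97 and 151 FPKM, and 7.06, 1.24 and 51.7 FPKM. For Lhx2 they were Tbx1, Fhod3 and Col8a2, for Sox9 they were Nkd2, Id4 and Col8a2, and for Sox21 they were Egr3, Edaradd and Bcl11a. For Ovol1 they were Serinc2, Slc30a1 and Spint1, for Foxq1 they were Syde2, Rapgefl1 and Timp3, and for Gata3 they were Tnfrsf19, Yap1 and Irx2. All of these r values were between 0.97 and 0.99. Among the 10 members, r was highest for Hoxc13 and Msx2 (0.99) and lowest for Ovol1 and Foxq1 (0.63).

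Other genes of the follicle were taken from lists. Of 19 other follicle regulators tested, 14 were lower and 3 higher on day 3 (median log2 fold change -1.09, -0.03 over all genes), and 1 was lower and 15 higher on day 14 (median 0.95, -0.06 over all genes). Foxe1, a forkhead factor of the follicle, had the largest decrease of the list on day 3 (log2 -4.53, SE 0.46) and was 4.88 higher on day 14 (SE 0.23), from 0.539 ± 0.269 FPKM on day 0 to 17.3 ± 1.85 (SD, n = 4 each). Runx1, which acts in follicle stem cells and in blood cells, went the other way on day 3 (log2 1.24, SE 0.08). Vdr, the vitamin D receptor needed for hair cycling, was 1.23 lower on day 3 and 1.83 higher on day 14, and Hr, the hairless corepressor, was 0.99 lower and 0.26 higher.

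Among paralogs of the members, 12 of 25 in the table had enough counts to be tested. On day 3, 11 of these were lower (34.8% of all genes tested) and none higher (31.8%), with a median log2 fold change of -2.03. On day 14, 5 were lower (34.5%) and 4 higher (28.2%), with a median of -0.37. Dlx2, the paralog of Dlx3, went from 0.409 ± 0.158 FPKM at day 0 to 0.0181 ± 0.0177 by day 3, and it had 5.26 ± 0.107 by day 14 (SD, n = 4 each). Msx1, the paralog of Msx2, went from 2.36 ± 0.78 to 0.716 ± 0.213 and 10.6 ± 0.257. Gata2, the paralog of Gata3, was lower on both days (log2 -0.36, SE 0.08, on day 3 and -1.45, SE 0.09, on day 14), which on day 14 was opposite to Gata3.

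Hair shaft and inner root sheath genes marked the same 2 ends. Of the 14 shaft keratin genes, 13 were lower on day 3 (median log2 fold change -6.88) and 14 higher on day 14 (median 3.54). Of the 12 genes of the inner root sheath list, 11 were lower and 1 higher on day 3 (median -6.41) and 12 higher on day 14 (median 2.40). The one that was higher on day 3 was Tgm3, a transglutaminase also made in differentiating epidermis (log2 2.08, SE 0.20). Krt71 and Krt25, the keratins at the highest level in that list, fell on day 3 by 6.69 (SE 0.47) and 6.66 (SE 0.49) on the log2 scale. These sizes moved with day 0 replicate 1, which held 449 FPKM of the shaft keratins and 926 of the inner root sheath genes, against 59.0 to 97.8 and 146 to 308 in the other day 0 libraries. Without it the counts of calls were the same, while the shaft medians were -5.67 and 4.99, the sheath medians -5.53 and 3.36, and the day 3 values of Krt71 and Krt25 -5.80 and -5.69.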

How the data were processed

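RNA from 28 skin wound libraries was measured, and groups and replicate numbers followed the labels. The authors deposited raw counts for 29068 gene symbols, which are not normalized, and FPKM values, which the authors made by dividing each count by a fixed gene length and the library total (checked on 15396 genes). The submitters' processing notes list fastp, R 3.2.0 and mm10. The aligner, counter, annotation and strandedness are not given in the sources used here. Genes that overlap could share reads.

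Counts were fitted in R 4.3.3 with edgeR 4.0.16 (TMM factors, filterByExpr, quasi-likelihood test, two-sided, 28 libraries in 1 fit without covariates). Benjamini-Hochberg adjustment covered the 18107 genes tested. The study used DESeq2, which is an alternative here. Log2 CPM had a prior count of 2, ratios had 0.5 added to each count, and exact two-sided permutation tests compared 4 libraries with 4 (smallest p 0.0286). No 2 libraries of a day were alike within counting noise. Steps were tested on simulated data. Alternatives were other scaling factors, filters and models (DESeq2 1.42.0, limma 3.58.1 on log2 FPKM plus 1 or 0.1), Xist as a covariate, a replicate block, other calls, and each library left out. The members and lists were chosen with earlier results of these data known. Genes named were the members, the 3 most like each, and for a list its 2 highest and its largest increase and decrease on day 3. Not every gene this rule allows is printed, and those printed were selected with the values known. The Foxn1 ratios were added after the values were seen. Promoters came from a set of RefSeq promoters on GRCm38 that held entries for 5 members, and positions from GENCODE M21.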

Additional observations from a re-analysis of the deposited data

Results flagged for a closer look

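In 70 groups of 4 libraries (10 genes on 7 days), a library far from the other 3 by Dixon's criterion was found 3 times, where chance gives about 1 in 20 groups, or 3.5. Foxn1 stood at a log2 CPM of 3.61 in day 0 replicate 1, with 1.92 to 2.16 in the other day 0 libraries. Dlx3 stood at 5.33 in the same library, with 3.93 to 3.97 in the others. Lhx2 stood at 5.54 in day 12 replicate 2, with 5.26 to 5.28 in the others.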

How the results depend on the processing

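Of the 1738 recomputed log2 fold changes, 1645 kept direction and side of the threshold, 59 lost the call, 25 gained it and 9 turned, all 9 of values not called. Those were Sox21 on day 10 against day 0 (0.022 with upper quartile factors, 0.037 with library totals, 0.0379 and 0.046 by limma with 1 and 0.1 added, and -0.081 to 0.099 with libraries left out in turn), Hoxc13 on day 7 (-0.032 to 0.53) and Foxq1 on day 14 against day 12 (-0.10 to 0.027). Of 540 recomputed values relative to the epithelial genes, 62 moved by more than the spread between replicates, none to the other sign, each with a day 0 library left out (23, 9, 10 and 20 for replicates 1 to 4). The lower call on day 12 (Foxq1) went to 0 with library totals, no filter, the replicate block, edgeR or DESeq2 on 8 libraries, limma with 1 or 0.1 added and the study's criteria, and that on day 14 to 0 with library totals, edgeR on 8 libraries, both limma fits and the study's criteria. Higher calls on day 10 were 2 with at least 10 counts in every library, since Hoxc13 and Msx2 were removed, and on day 7 they were 2 and 1 by limma with 1 and 0.1 added. Lower calls on day 10 were 3 by edgeR on 8 libraries. With the study's criteria the calls were 0 lower on day 7, 0 lower and 0 higher on day 10, and 4 higher on day 12. Leaving out each library gave 0 to 4 higher on day 7, 0 to 1 lower on day 12 and on day 14, 3 to 5 higher on day 10 against day 7 (6 with all), and 12 to 19 ratios higher without overlap. Where not named otherwise, the cause was not tested. Day 0 replicate 1 gave the counts of 4 on day 7 and 19 ratios. Of the 30 pairs of a member and a gene named as most like it, 11 were named again over the 24 wound libraries. Replicate numbers did not pair the libraries (correlation of deviations -0.08 to 0.18, median 0.00, over 84 pairs), and the block moved no other count by over 1.5 times. Day 3 values of Hoxc13 and Msx2 rest on 4 to 26 counts, which limits their precision.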

Other observations

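All 5 melanocyte genes were lower on day 3 (median log2 fold change -3.33) and all 5 higher on day 14 (median 4.00, and 4.88 without day 0 replicate 1). Their summed level of 21.7 to 44.5 FPKM in the day 0 libraries gave way to 2.27 to 3.35 at day 3, and it was 59.9 to 71.6 by day 10 and 314 to 363 by day 14. Dct, an enzyme of melanin synthesis, was 3.33 lower on day 3 (SE 0.19) and already 1.59 higher on day 10 (SE 0.15), where Foxn1 was low. Of 12 dermal papilla genes, 8 were lower and 3 higher on day 3 (34.8% and 31.8% of all genes tested). On day 14, 2 were lower and 9 higher (34.5% and 28.2%). Corin, a protease of the papilla, went from 0.263 ± 0.200 FPKM in the day 0 libraries to 0.0120 ± 0.0084 at day 3 and 4.36 ± 0.239 by day 14 (SD, n = 4 each), and Crabp1 from 34.2 ± 7.41 to 75.3 ± 9.02 and 19.6 ± 2.87. The log2 fold change of Corin against day 0 was -4.33 on day 3 and 3.92 on day 14. Without day 0 replicate 1 these were -3.68 and 4.60.

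Of the 10 genes of a stem cell and outer root sheath list, 9 were lower on day 3 (8 without day 0 replicate 1). Of all genes tested, 34.8% were lower on day 3. On day 14, 5 of the list were lower (34.5% of all genes) and 4 higher (28.2%), with a median log2 fold change of -0.29. Krt15, a keratin of the bulge, was 3.46 lower on day 3 (SE 0.11) and 0.72 lower on day 14 (SE 0.10). Postn, an extracellular matrix protein also made by fibroblasts, differed by 0.26 on day 3 (SE 0.12, edgeR adjusted p = 0.053), was called higher without day 0 replicate 1 (0.55, adjusted p = 3.45e-07), and was 2.14 higher on day 14 (SE 0.12). The other 3 genes higher on day 14, named after their values were seen, were Cdh3 (2.23), Lgr5 (1.57) and Lrig1 (0.30). All 7 sebaceous gland genes were lower on days 3 and 14 (medians -2.51 and -1.58), and 6 of 7 on day 14 without that library.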
